A study of Mus musculus with 12 samples.

Results

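The genes described are 10 components of the mouse Notch pathway: the receptors Notch1, Notch2 and Notch3, the ligands Jag1, Jag2 and Dll1, and the target genes Hes1, Hey1, Hey2 and Heyl. They were taken by symbol from the 48795 gene IDs of a table of read counts, where all 10 were found. Heyl was included because of its low level in cultures given the GI-SINE ASO mix compared with those given the control ASO, so that comparison is given for the 10 genes as a description. No p value is given there, and the count of genes called stands only beside that of all genes. Total RNA was sequenced from primary cultures of dorsal root ganglia (DRG), the ganglia of the sensory neurons, whose cultures also hold glial, fibroblast and vascular cells. An antisense oligonucleotide (ASO) base-pairs with the RNA it is designed against, and the mix was aimed at GI-SINE RNA, which is copied from B2 repeat elements. The 12 libraries form 3 groups of 4: cultures transfected with the ASO mix at 50 nM, cultures transfected with control ASO at the same 50 nM, and cultures left untransfected. All came from wild-type C57/Bl6 mice, and 1 mouse per replicate number supplied a culture that was split over the 3 conditions, so the mouse number pairs the libraries. A mock transfection without ASO was not analysed here, so in the comparison of the control ASO with no transfection, transfection and oligonucleotide cannot be told apart.

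Notch receptors are single-pass proteins at the cell surface, activated by Jagged and Delta-like ligands on neighbouring cells. Binding lets ADAM proteases and then the gamma-secretase complex cut the receptor, and the freed intracellular domain enters the nucleus, where it joins the DNA-binding protein RBPJ and a Mastermind coactivator to switch on repressors of the Hes and Hey families. In the peripheral nervous system the pathway is known for steering neural crest cells towards glia, for its role in immature Schwann cells, and, through Notch3 and Heyl, for the smooth muscle cells and pericytes of vessel walls.

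Total counts were 16416459 to 21250125 in the ASO mix libraries, 14864622 to 22704267 in the control ASO libraries and 16971091 to 22668448 in the untransfected libraries. All 12 neuronal markers chosen to check the tissue were detected in each group, with summed levels, in counts scaled to library size (CPM), of 8324 to 10107 CPM with the ASO mix, 7061 to 8278 CPM with the control ASO and 6168 to 8191 CPM without transfection. On the first principal component, which held 57.3% of the variance, the mix library of mouse 4 lay at -25.9, against -72.3 to -64.4 for the mix libraries of mice 1 to 3. Values below are CPM with library sizes adjusted by edgeR's TMM factors, listed for mice 1 to 4 in that order. Log2 fold changes carry the standard error (SE) of an edgeR quasi-likelihood fit to all 12 libraries with group and mouse as terms. A gene was called at a Benjamini-Hochberg adjusted p under 0.05 over all 16831 genes tested.

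The 10 genes did not move as one. Notch1, Notch2, Jag1, Hes1, Hey2 and Heyl fell with the control ASO relative to no transfection, Hey1 rose, and Notch3, Jag2 and Dll1 were not called. That is 6 of 10 genes lower, where 13.7% of all tested genes were called lower, and 1 of 10 higher, where 10.5% were called higher. The 4 control ASO libraries lay wholly below the 4 untransfected ones for 5 of the 10 genes and wholly above them for 1, beside 12.9% and 10.5% of all tested genes. The median log2 fold change was -0.74 over the 10 genes and 0.03 over all tested genes. With the ASO mix compared with the control ASO, the fit to all genes called 8 of the 10 lower, where 28.8% of all tested genes were called lower. The mix libraries lay wholly below the control ASO libraries for 3 of the 10 genes and wholly above them for 1, beside 19.4% of all tested genes each way and 38.8% in all. Heyl was taken from this comparison, so nothing is read from these counts. The median there was -0.63 over the 10 genes and -0.03 over all tested genes. With the mix relative to no transfection, 8 of the 10 genes were called, where 61.2% of all tested genes were. Of these, 7 were lower (31.1% of all tested genes) and 1, Dll1, higher (30.1%). The libraries of these groups did not overlap for 6 of the 10 genes, beside 46% of all tested genes: the mix was lower in 5 (23.2%) and higher in 1 (22.8%). Heyl, included for its low level with the mix, is among the lower genes in both counts, so nothing is read from them either. The first 2 comparisons use the 4 control ASO libraries, and the last uses libraries of both, so their values are not independent of each other. All 10 genes passed the filter on low counts, Heyl through its control ASO and untransfected libraries, and Dll1 with no more than 18 reads in any library.

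**Figure D1:**
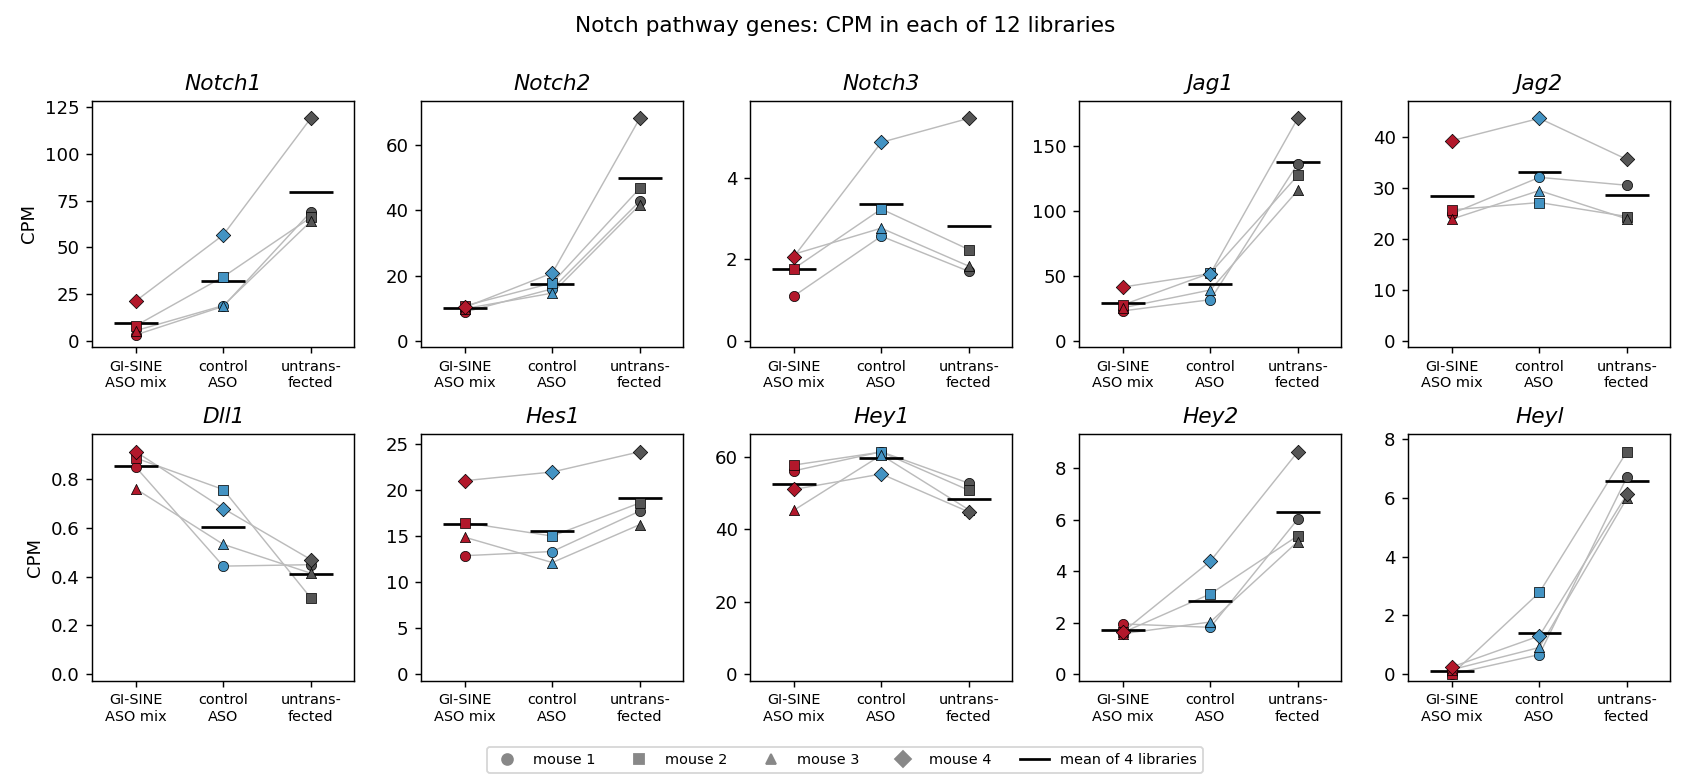
CPM of each of the 10 Notch pathway genes (linear axes, each from 0) in the 12 libraries, by group from left to right: ASO mix, control ASO and untransfected; each point is 1 library, its marker shape gives the mouse, grey lines join the libraries of a mouse, and black lines are group means. Heyl runs from 0 CPM in the mix libraries of mice 1 and 2 to 7.57 CPM in an untransfected library, while Hey1 stays between 44.7 and 61.3 CPM.

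Among the receptors, Notch1 and Notch2 were lowest with the ASO mix, intermediate with the control ASO and highest without transfection in all 4 mice. Notch1 (ENSMUSG00000026923, GRCm38 chromosome 2, 26457903 to 26516663, minus strand), the receptor most studied in neural progenitors and glia, had 3.10, 8.04, 5.37 and 21.3 CPM with the ASO mix, 18.4, 34.2, 18.8 and 56.7 CPM with the control ASO, and 69.0, 66.0, 63.9 and 119 CPM without transfection. Mouse 4 was the highest of its group each time, and its mix library lay above the control ASO libraries of mice 1 and 3. The control ASO libraries lay below all untransfected ones, with a log2 fold change of -1.42 ± 0.26 (SE, lower in 4 of 4 mice, adjusted p = 0.00912). That call was lost in a fit without the mouse term (adjusted p = 0.149) and without mouse 3 (adjusted p = 0.0788), at log2 fold changes of -1.32 and -1.33. The log2 fold change of the mix relative to the control ASO was -1.84 ± 0.31.

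Notch2 (ENSMUSG00000027878, chromosome 3, 98013527 to 98150361, plus strand) was the receptor with the tightest groups. It had 8.80, 10.7, 9.83 and 10.2 CPM with the ASO mix, 15.9, 17.7, 14.6 and 20.8 CPM with the control ASO, and 42.8, 46.8, 41.7 and 68.3 CPM without transfection. No library of one group overlapped with those of another. It fell with the control ASO relative to no transfection by 1.52 ± 0.09 on the log2 scale (SE, 4 of 4 mice, adjusted p = 3.36e-10), and the mix was lower than the control ASO by a further log2 fold change of -0.79 ± 0.10.

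Notch3 (ENSMUSG00000038146, chromosome 17, 32120820 to 32166852, minus strand), the receptor of vascular smooth muscle and pericytes, did not follow the other receptors. It had 1.10, 1.77, 2.13 and 2.07 CPM with the ASO mix, 2.57, 3.24, 2.77 and 4.88 CPM with the control ASO, and 1.71, 2.24, 1.83 and 5.47 CPM without transfection. The mix libraries lay below all control ASO libraries (log2 fold change -0.91 ± 0.22), but within the range of the untransfected ones except in mouse 1. The control ASO and untransfected libraries overlapped, and the difference of 0.31 ± 0.20 on the log2 scale was not called (adjusted p = 0.293). The mix against no transfection gave -0.60 ± 0.22 with an adjusted p of 0.0274 and a lower value in 3 of 4 mice. Without mouse 4 that value was -0.23 and the adjusted p 0.389. Notch3 rests on 22 to 128 reads per library, and its exons overlap those of Gm17276 on the other strand. Exons of Notch1, Notch2 and Dll1 also overlap those of other annotated genes, and whether reads were counted by strand is not given in the sources used here. The counts of these 4 genes are therefore uncertain to that extent.

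Of the ligands, Jag1 fell with the control ASO relative to no transfection, while Jag2 and Dll1 were not called. Jag1 (ENSMUSG00000027276, chromosome 2, 137081456 to 137116644, minus strand), a ligand shared by vessel walls, glia and neurons, had 22.9, 27.6, 25.3 and 41.3 CPM with the ASO mix, 31.6, 52.1, 39.1 and 51.6 CPM with the control ASO, and 136, 127, 116 and 171 CPM without transfection. Every untransfected library lay far above all others, while the mix and control ASO libraries overlapped. Jag1 fell with the control ASO relative to no transfection by 1.67 ± 0.11 on the log2 scale (SE, 4 of 4 mice, adjusted p = 5.56e-07), and the mix relative to the control ASO gave -0.59 ± 0.12.

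Jag2 (ENSMUSG00000002799, chromosome 12, 112907819 to 112929776, minus strand), the second Jagged ligand, had 24.9, 25.7, 23.9 and 39.3 CPM with the ASO mix, 32.1, 27.1, 29.5 and 43.6 CPM with the control ASO, and 30.5, 24.4, 23.9 and 35.6 CPM without transfection. The 3 groups overlapped, and within each of them mouse 4 was highest. The control ASO differed from no transfection by 0.20 ± 0.07 on the log2 scale (adjusted p = 0.0537), a difference called in 5 of the 14 alternative settings, with adjusted p values of 0.00991 to 0.0496 there. The mix relative to the control ASO gave -0.22 ± 0.07, and relative to no transfection -0.02 ± 0.08 (adjusted p = 0.846).

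Dll1 (ENSMUSG00000014773, chromosome 17, 15367354 to 15376872, minus strand), a Delta-like ligand of neural progenitors, was near the limit of detection. It had 0.850, 0.887, 0.760 and 0.913 CPM with the ASO mix, 0.443, 0.758, 0.533 and 0.680 CPM with the control ASO, and 0.449, 0.313, 0.414 and 0.470 CPM without transfection. The mix libraries lay above all others, but the lowest of them, at 0.760 CPM, barely cleared the highest control ASO library, at 0.758 CPM. In unscaled reads these groups overlapped, with 15 to 17 per mix library and 10 to 18 per control ASO library. Summed over 4 libraries, 64 reads with the mix stood against 49 with the control ASO and 34 without transfection. The control ASO gave a log2 fold change of 0.54 ± 0.35 relative to no transfection (adjusted p = 0.287). The mix gave 0.50 ± 0.31 relative to the control ASO, and 1.03 ± 0.33 relative to no transfection (4 of 4 mice, adjusted p = 0.0114). The last call was lost without mouse 2 (adjusted p = 0.0523).

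**Figure D2:**
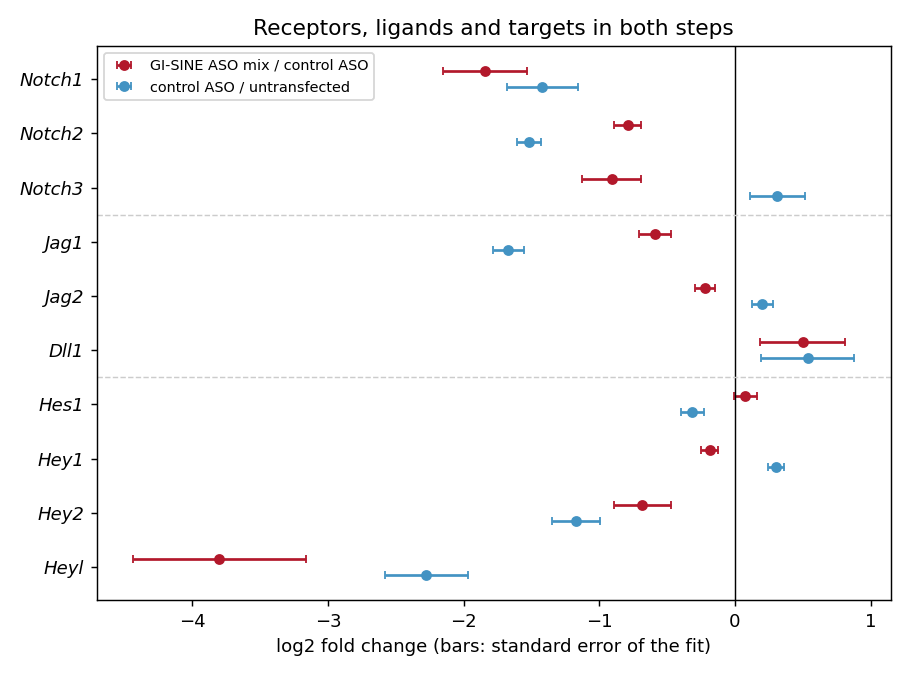
Log2 fold change of each gene for the ASO mix relative to the control ASO and for the control ASO relative to no transfection; points are estimates of the fit over 12 libraries and bars are standard errors. Heyl, Notch1, Notch2, Jag1 and Hey2 lie below 0 in both, Hey1 at -0.19 and 0.30, and Dll1 above 0 in both.

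Among the targets, Heyl, Hey2 and Hes1 fell with the control ASO relative to no transfection, and Hey1 rose. Heyl (ENSMUSG00000032744, chromosome 4, 123233556 to 123249875, plus strand) encodes a basic helix-loop-helix repressor of the Hey family known from smooth muscle and from developing DRG neurons. It had 0, 0, 0.152 and 0.243 CPM with the ASO mix, 0.665, 2.78, 0.906 and 1.30 CPM with the control ASO, and 6.69, 7.57, 5.98 and 6.12 CPM without transfection. These are 0, 0, 3 and 4 reads with the mix, 15, 66, 17 and 21 with the control ASO, and 149, 145, 101 and 143 without transfection. No library of one group overlapped with those of another. A count of 0 allows up to 3 reads, which is 0.150 CPM in the mix library of mouse 1 and 0.156 CPM in that of mouse 2. In summed reads corrected for depth, the mix was 15.8-fold lower than the control ASO (95% exact binomial interval 7.42 to 40.0, counting error only), on 7 against 119 reads. The fitted log2 fold change of -3.80 ± 0.64 depends on the prior count, since 2 libraries are at 0.

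Heyl also fell in the comparison that did not bring it in. The control ASO gave a log2 fold change of -2.28 ± 0.30 relative to no transfection (SE, 4 of 4 mice, adjusted p = 0.000136), or 4.50-fold fewer reads (95% exact binomial interval 3.68 to 5.53, counting error only). This was the largest fall of the 10 genes in that comparison, on 119 against 538 reads. The mix relative to no transfection, given without a test, was 70.9-fold lower (34.2 to 177) on 7 against 538 reads.

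Hey2 (ENSMUSG00000019789, chromosome 10, 30832359 to 30842801, minus strand), a related repressor of the heart and arteries, had 1.95, 1.62, 1.57 and 1.64 CPM with the ASO mix, 1.82, 3.12, 2.02 and 4.39 CPM with the control ASO, and 6.02, 5.38, 5.15 and 8.64 CPM without transfection. The untransfected libraries lay above all others, and the mix library of mouse 1 lay above its own control ASO library. Hey2 fell with the control ASO by 1.17 ± 0.18 on the log2 scale (SE, 4 of 4 mice, adjusted p = 8.1e-05). The mix relative to the control ASO gave -0.68 ± 0.21, and -0.43 without mouse 4.

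Hes1 (ENSMUSG00000022528, chromosome 16, 30064384 to 30067796, plus strand), the repressor read most often as a Notch response, had 12.9, 16.5, 14.9 and 21.1 CPM with the ASO mix, 13.3, 15.03, 12.1 and 22.0 CPM with the control ASO, and 17.7, 18.6, 16.3 and 24.2 CPM without transfection. Mouse 4 was highest in every group, and the groups overlapped. Within each mouse the control ASO library was lower than the untransfected one, by a log2 fold change of -0.31 ± 0.08 (SE, adjusted p = 0.00961). Without the mouse term the adjusted p was 0.34, and without mouse 1, 2 or 3 it was 0.0599, 0.0511 or 0.0559. The mix relative to the control ASO gave 0.08 ± 0.08, and -0.05 when libraries were scaled by size alone.

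Hey1 (ENSMUSG00000040289, chromosome 3, 8663359 to 8667256, minus strand), a repressor of the same family as Heyl and Hey2, went the other way in the control ASO cultures. It had 56.1, 57.7, 45.2 and 50.9 CPM with the ASO mix, 61.3, 61.3, 60.4 and 55.2 CPM with the control ASO, and 52.7, 50.7, 45.3 and 44.7 CPM without transfection. All control ASO libraries lay above all untransfected ones, and Hey1 rose by 0.30 ± 0.06 on the log2 scale (SE, 4 of 4 mice, adjusted p = 0.00153). The mix relative to the control ASO gave -0.19 ± 0.06, which was -0.09 without mouse 3 and -0.31 with scaling by library size alone.

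The mix relative to no transfection spans both steps and shares its libraries with the comparisons above. Notch1 fell by 3.26 ± 0.30 on the log2 scale (adjusted p = 7.96e-05), Notch2 by 2.31 ± 0.09 (adjusted p = 1.67e-12), Jag1 by 2.26 ± 0.12 (adjusted p = 1.25e-08) and Hey2 by 1.86 ± 0.19 (adjusted p = 2.02e-07), each in 4 of 4 mice. Hes1 fell by 0.24 ± 0.08 (adjusted p = 0.0188), a call lost without the mouse term (adjusted p = 0.318) and without mouse 1 (adjusted p = 0.165). Hey1 differed by 0.12 ± 0.06 and was not called (adjusted p = 0.118).

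The nuclear complex of the pathway binds DNA through RBPJ, so the promoters of the 10 genes were searched for its recognition sequence. RefSeq promoter sequences (GRCm38.p6, 250 bases before to 50 after a gene's start) were found for 7 of the 10 genes: the 3 receptors, the 3 ligands and Hey2. They were searched on both strands for GTGGGAA, the common form of the RBPJ recognition sequence, and for its core TGGGAA, which it contains. Hey2 alone among the 7 held either, with both forms at 2 places. The core began 207 bases before the start on the opposite strand and 3 bases before the start on the gene's own strand. Of all 32851 promoters of that length, 6.38% held GTGGGAA and 25.6% held the core. A match is a description of the letters and does not show that the factor binds there. The promoter of Hey2, which holds the sequence, is shown beside those of Notch2 and Jag1, which hold neither form and belong to genes that fell in the same comparison. Capitals mark GTGGGAA or its reverse complement, and each sequence reads from 5′ to 3′ along the gene's strand. They are chr10:30842734-30843033 (minus strand) for Hey2, chr3:98013288-98013587 (plus strand) for Notch2 and chr2:137116471-137116770 (minus strand) for Jag1.
Hey2: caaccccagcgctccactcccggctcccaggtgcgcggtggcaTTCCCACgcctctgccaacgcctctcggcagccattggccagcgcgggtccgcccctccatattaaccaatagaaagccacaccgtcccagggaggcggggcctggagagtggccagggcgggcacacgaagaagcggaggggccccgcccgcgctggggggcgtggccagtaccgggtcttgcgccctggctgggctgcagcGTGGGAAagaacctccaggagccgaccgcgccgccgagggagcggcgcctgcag
Notch2: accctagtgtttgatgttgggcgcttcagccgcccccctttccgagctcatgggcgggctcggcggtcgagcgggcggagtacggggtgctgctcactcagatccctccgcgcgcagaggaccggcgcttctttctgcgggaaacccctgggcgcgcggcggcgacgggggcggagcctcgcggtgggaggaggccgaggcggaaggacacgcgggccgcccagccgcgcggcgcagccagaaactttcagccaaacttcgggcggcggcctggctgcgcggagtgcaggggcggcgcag
Jag1: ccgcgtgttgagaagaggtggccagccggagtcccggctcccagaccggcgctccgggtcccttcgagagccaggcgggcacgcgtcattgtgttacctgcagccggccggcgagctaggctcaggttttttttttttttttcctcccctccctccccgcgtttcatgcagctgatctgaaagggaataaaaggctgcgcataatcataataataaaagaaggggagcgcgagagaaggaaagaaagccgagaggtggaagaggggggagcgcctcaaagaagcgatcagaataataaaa

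To compare genes with each other, levels were divided by the length of each gene's merged exons, giving CPM per kilobase. With the ASO mix the order of mean levels was Hey1 (16.1 CPM per kilobase), Hes1 (8.02), Jag1 (5.03), Jag2 (4.08), Notch2 (0.917), Notch1 (0.664), Hey2 (0.369), Notch3 (0.219), Dll1 (0.202) and Heyl (0.0193). Only Hey1 from Hes1, Jag2 from Notch2, Hey2 from Notch3 and Dll1 from Heyl were neighbours whose 4 libraries did not overlap. With the control ASO, Hey1 again led at 18.2 CPM per kilobase, followed by Hes1 at 7.67 and Jag1 at 7.48. Jag2 stood at 4.75, Notch1 at 2.25, Notch2 at 1.60, Hey2 at 0.618, Notch3 at 0.416, Heyl at 0.276 and Dll1 at 0.143 CPM per kilobase. In that group only Hey1 from Hes1 and Notch2 from Hey2 did not overlap with their lower neighbour. Without transfection Jag1 was first at 23.6 CPM per kilobase, ahead of Hey1 at 14.8 and Hes1 at 9.43. Hes1 overlapped with Notch1 at 5.59, Notch1 with Notch2 at 4.63, and Notch2 with Jag2 at 4.11 CPM per kilobase. Hey2 at 1.37 overlapped with Heyl at 1.29, and no other neighbours overlapped. Notch3 at 0.348 and Dll1 at 0.0976 CPM per kilobase were the lowest 2. Thus Jag1 held rank 1 in untransfected cultures and rank 3 in both transfected groups, and Heyl stood beside Hey2 without transfection and last with the ASO mix.

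The make-up of the receptor and ligand pools was expressed as the share of each gene in the summed CPM per kilobase of its 3 genes. Jag1 made up 53.8% ± 1.89 of the ligand sum with the ASO mix, 60.2% ± 6.38 with the control ASO and 84.9% ± 0.830 without transfection (SD, n = 4 each). Jag2 made up 43.9% ± 1.68, 38.7% ± 6.54 and 14.7% ± 0.794 in the same groups, and Dll1 2.25% ± 0.407, 1.15% ± 0.158 and 0.354% ± 0.0576. In each of the 4 mice the Jag1 share was lower with the control ASO than without transfection, by 24.7 percentage points on average (SD 5.58). An exact two-sided sign-flip permutation test over the 4 mice gave p = 0.125, the smallest p that 4 pairs allow, and an adjusted p of 0.1875 over the 6 shares compared. The share of Notch3 among the receptors was 12.6% ± 3.15 with the ASO mix, 9.98% ± 1.07 with the control ASO and 3.09% ± 0.911 without transfection. It was higher with the control ASO than without transfection in 4 of 4 mice (exact permutation p = 0.125, again the smallest possible). Notch1 made up 32.5% ± 16.2, 50.2% ± 9.04 and 52.6% ± 1.89 of the receptor sum, and its share was higher with the control ASO in 2 mice and lower in 2. Shares of 1 sum are tied to one another: in the ligand pool the summed level was 7.72 to 12.9 CPM per kilobase with the mix, 10.1 to 15.3 with the control ASO and 23.4 to 34.6 without transfection.

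**Figure D3:**
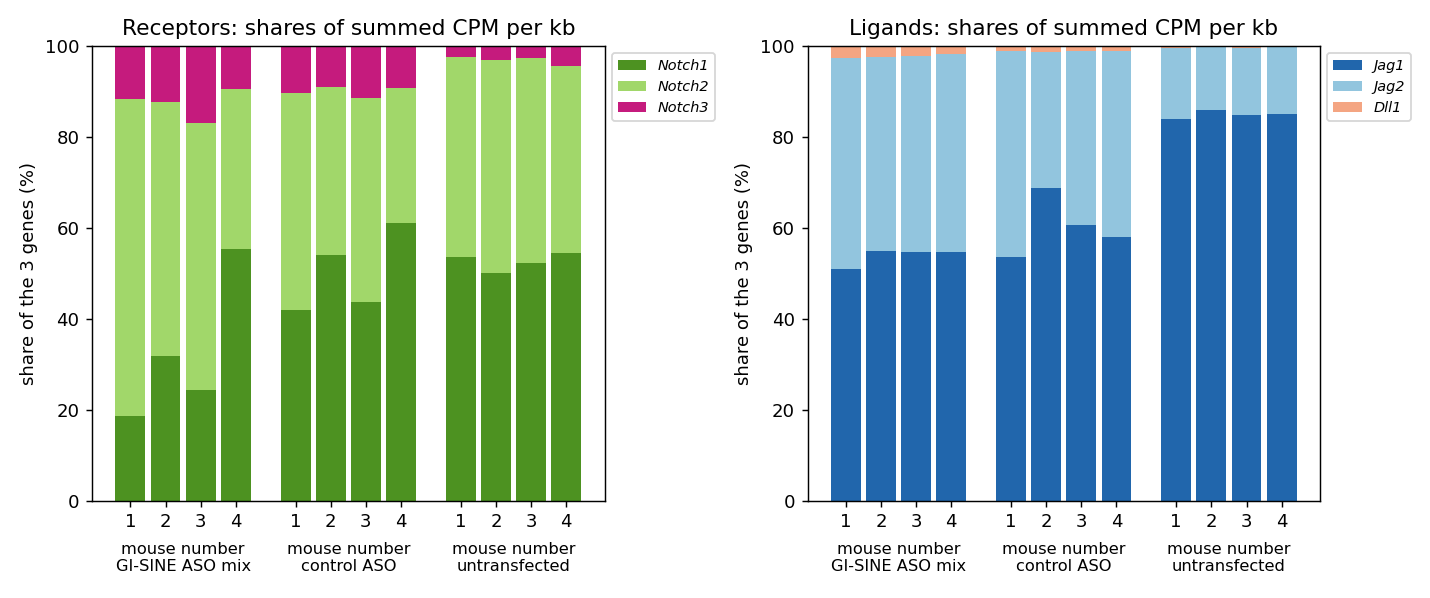
Share (%) of each receptor gene in the summed CPM per kilobase of Notch1, Notch2 and Notch3, and of each ligand gene in that of Jag1, Jag2 and Dll1, as stacked bars, 1 bar per library, by group (ASO mix, control ASO, untransfected) and mouse 1 to 4. Jag1 fills 83.9% to 85.9% of the ligand bars without transfection and at most 54.9% of them with the ASO mix.

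The rest of the pathway was described with 69 further genes sorted by role, of which 65 could be tested. With the control ASO relative to no transfection, 8 of the 65 rose, 17 fell and 40 were not called, a called share of 38.5% beside 24.2% of all tested genes. Their median log2 fold change was -0.03, beside 0.03 over all tested genes. Of the protease genes that cut the receptor 3 of 10 fell and 1 rose, and of the nuclear genes 6 of 17 fell, beside 13.7% lower and 10.5% higher among all tested genes. Adam10, which sheds the receptor's outer part, fell by 0.70 ± 0.06 on the log2 scale (adjusted p = 8.1e-08). The Mastermind coactivators Maml2 and Maml3 fell by 1.00 ± 0.13 and 1.14 ± 0.15 (adjusted p = 1.11e-05 and 1.64e-05), and the corepressor gene Ctbp2 by 0.47 ± 0.08 (adjusted p = 0.000361). Lfng, a sugar transferase that changes which ligand a receptor prefers, fell by 1.33 ± 0.17 (adjusted p = 9.81e-06) and was the only one of 6 glycosylation genes called. Of the 13 genes listed as regulators of the pathway 3 fell and 3 rose. The ubiquitin ligase genes Nedd4 and Dtx4 fell by 0.34 ± 0.05 and 0.51 ± 0.09 (adjusted p = 6.13e-05 and 0.000446). The Deltex family genes Dtx2 and Dtx3l, added after their values were seen, rose by 0.31 ± 0.09 and 0.41 ± 0.08 (adjusted p = 0.0193 and 0.00135).

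Rbpj itself had 16.8, 16.8, 17.6 and 17.7 CPM with the ASO mix, 22.1, 22.0, 20.5 and 21.3 CPM with the control ASO, and 24.0, 25.6, 27.8 and 28.3 CPM without transfection. The 3 groups did not overlap. It fell with the control ASO relative to no transfection by 0.29 ± 0.07 on the log2 scale (adjusted p = 0.00618) and with the mix relative to the control ASO by 0.32 ± 0.08 (adjusted p = 0.00151). The first of these calls was lost without mouse 3 (adjusted p = 0.0576).

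With the ASO mix relative to the control ASO, 20 of the 65 other pathway genes rose, 27 fell and 18 were not called. The 20 include Hes7, which passed the filter on low counts only through its mix libraries. The called share was 72.3%, beside 56.2% of all tested genes, and the median log2 fold change -0.07, beside -0.03. In the nuclear group 11 of 17 genes fell and 3 rose, beside 28.8% lower and 27.3% higher among all tested genes. The coactivator gene Maml1 fell by 0.88 ± 0.08 on the log2 scale (adjusted p = 2.06e-07), Snw1, a cofactor of RBPJ, by 0.68 ± 0.08 (adjusted p = 1.85e-06), and Kdm5a, a histone demethylase of the repressor complex, by 0.65 ± 0.07 (adjusted p = 1.52e-06). Hdac2, a histone deacetylase, rose by 0.54 ± 0.06 (adjusted p = 1.54e-06). Among the regulators of the pathway 6 of 13 fell and 3 rose, beside the same shares of all tested genes. Fbxw7, the ligase that marks the intracellular domain for destruction, rose by 0.77 ± 0.06 (adjusted p = 2.49e-08), and Dtx3, of the Deltex family, by 0.67 ± 0.07 (adjusted p = 3.27e-07). Itch, a ligase that acts on the receptor at the membrane, fell by 0.78 ± 0.07 (adjusted p = 1.3e-07). Dner, a neuronal transmembrane protein that resembles a Delta ligand, rose by 0.55 ± 0.06 (adjusted p = 1.26e-06).

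The list of other target genes held 9 that were tested: Hes6, Hes7, Nrarp, Myc, Ccnd1, Id1, Id3, Bhlhe40 and Gata2. Whether each of them responds to Notch in these cultures was not tested. With the mix relative to the control ASO 6 of the 9 rose and 1 fell, beside 27.3% higher and 28.8% lower among all tested genes. With the control ASO relative to no transfection 3 rose and 3 fell, beside 10.5% and 13.7%. Hes5, a Hes repressor of neural progenitors, was too low to be tested, with 9 reads in all mix libraries, 35 in all control ASO libraries and 8 in all untransfected libraries. Hes7 and Ccnd1 are added here after their values were seen. Hes7, a Hes repressor of the segmentation clock, had 2.35, 1.98, 2.28 and 0.913 CPM with the mix and 0.355, 0.253, 0.160 and 0.433 CPM with the control ASO, on 145 against 24 reads. The fitted log2 fold change was 2.66 ± 0.39. Hes7 had at most 8 reads in any control ASO or untransfected library. It passed the filter on low counts only through its mix libraries, so no p value is given for it. It is 1 of the 6 counted above as higher. Ccnd1, a cyclin gene that is also read as a proliferation marker, was the 1 that fell with the mix, by 1.64 ± 0.32 (adjusted p = 0.00457), and it fell with the control ASO by 1.96 ± 0.27 (adjusted p = 0.00297).

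**Figure D4:**
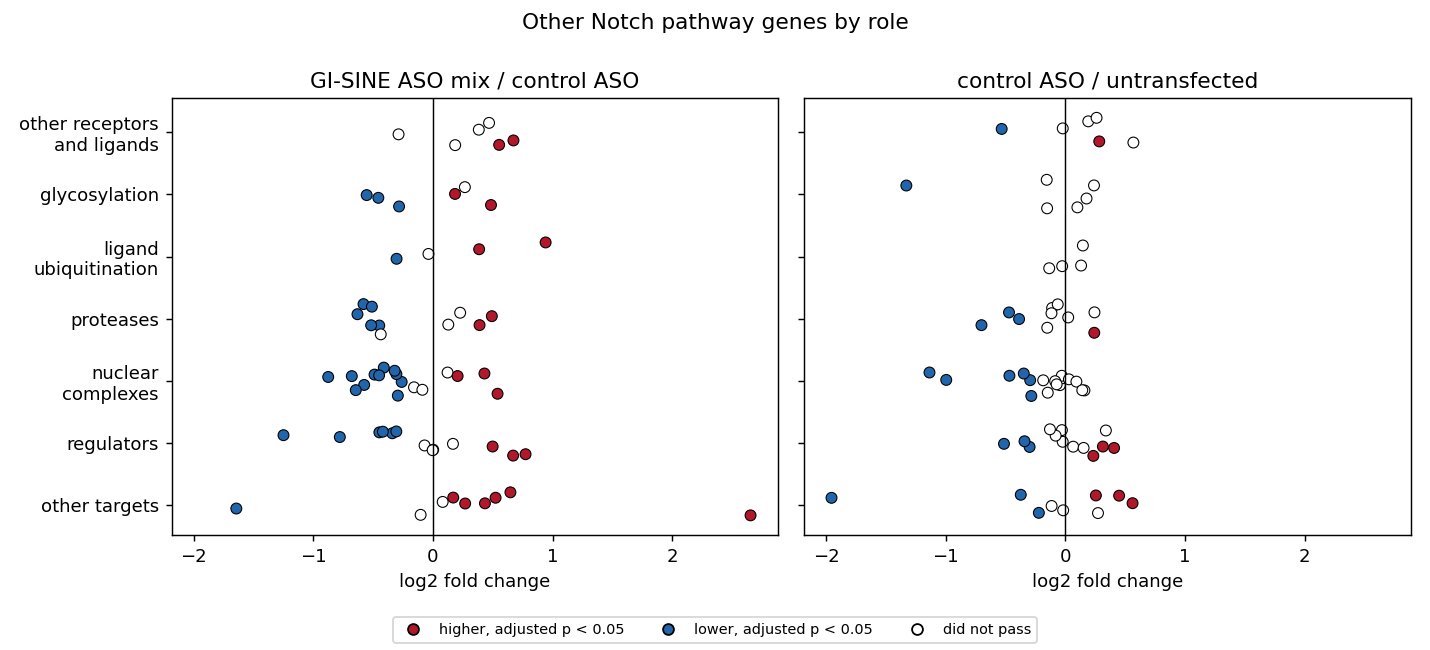
Log2 fold change of each of the 65 tested other Notch pathway genes, grouped by role down the page, for the ASO mix relative to the control ASO (left) and the control ASO relative to no transfection (right); red points are called higher and blue points lower at an adjusted p under 0.05, and open points are not called. In the nuclear group 11 of 17 genes are called lower on the left and 6 on the right, beside 28.8% and 13.7% of all tested genes. The red points on the left include Hes7, which passed the filter on low counts only through its mix libraries.

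Markers of cell types found in such cultures moved in the same comparisons, and which cells carry the Notch receptors here was not measured. With the control ASO relative to no transfection, 8 of 11 tested Schwann cell markers, 7 of 12 satellite glia markers, 8 of 12 fibroblast markers and 4 of 9 mural (smooth muscle and pericyte) markers fell, beside 13.7% of all tested genes. Among these markers Gja1, a gap junction gene on the satellite glia list, was the 1 that rose. Of the 12 neuronal markers 3 rose and 0 fell, beside 10.5% higher and 13.7% lower among all tested genes. With the mix relative to the control ASO 7 of the 12 neuronal markers rose and 1 fell, beside 27.3% higher and 28.8% lower. Summed Schwann cell markers were 620 to 692 CPM with the control ASO and 890 to 1136 CPM without transfection, and summed fibroblast markers were 409 to 542 CPM with the control ASO and 1066 to 1340 CPM without transfection. Summed satellite glia markers were 556 to 737 CPM with the control ASO and 856 to 974 CPM without transfection. The Schwann cell transcription factor gene Sox10 averaged 3.16 CPM with the ASO mix, 21.3 CPM with the control ASO and 88.0 CPM without transfection. On the same list S100b ran in the reverse order of groups, at 144, 81.6 and 72.9 CPM, and Pmp22 averaged 588, 433 and 482 CPM. Mag, a myelin gene, was too low to be tested, with 0 to 3 reads per library with the mix, 0 with the control ASO and 1 to 9 without transfection.

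The mural markers, which bear on Notch3 and Heyl, were split. Cspg4 averaged 1.98 CPM with the ASO mix, 10.7 CPM with the control ASO and 50.9 CPM without transfection, and Pdgfrb 6.76, 16.0 and 36.8 CPM in the same groups. Tagln averaged 7.10 CPM with the mix, 6.05 CPM with the control ASO and 183 CPM without transfection. The sum of the 11 mural markers was 348 to 613 CPM with the mix, 320 to 397 CPM with the control ASO and 507 to 775 CPM without transfection. In both transfected groups most of it came from Mcam and Rgs5, which did not follow that order. Rgs5 averaged 183 CPM with the mix, 102 CPM with the control ASO and 93.5 CPM without transfection. Mcam averaged 309, 217 and 235 CPM in the same groups, and Abcc9 2.70, 3.75 and 3.74 CPM. Rgs5 and Mcam were the 2 mural markers called higher with the mix relative to the control ASO. With the ASO mix relative to the control ASO, 6 of 11 Schwann cell, 6 of 12 satellite glia, 5 of 12 fibroblast and 4 of 9 mural markers fell, while 2, 1, 1 and 2 of them rose, beside 28.8% lower and 27.3% higher among all tested genes. Summed Schwann cell markers were 687 to 855 CPM with the mix and 620 to 692 CPM with the control ASO, and summed fibroblast markers were 476 to 606 CPM with the mix and 409 to 542 CPM with the control ASO. Single genes made up most of these sums. Pmp22, which rose, averaged 588 CPM with the mix and 433 CPM with the control ASO. Thy1, a fibroblast marker that neurons also express, rose by 0.60 ± 0.07 on the log2 scale (adjusted p = 9.45e-06) and averaged 468 CPM with the mix and 307 CPM with the control ASO. The collagen genes Col1a1, Col1a2, Col3a1 and Col5a1 and the matrix gene Postn were the 5 fibroblast markers that fell, by 1.10 to 2.08 on the log2 scale. Summed proliferation markers were 50.1 to 52.1 CPM with the mix, 43.1 to 47.7 CPM with the control ASO and 69.2 to 82.3 CPM without transfection. Of these, Pcna averaged 36.03, 28.1 and 29.0 CPM in the same groups, and with the mix relative to the control ASO 3 of 9 tested proliferation markers fell and 2 rose (median log2 fold change -0.25). Macrophage markers summed to 48.3 to 54.4 CPM with the mix, 22.6 to 31.0 CPM with the control ASO and 20.7 to 29.4 CPM without transfection. Most of that sum was Cd68, a lysosomal gene, at 41.8, 19.7 and 16.2 CPM. With the mix relative to the control ASO 2 of 7 tested macrophage markers rose and 5 were not called (median log2 fold change -0.30). In bulk RNA, fewer cells of a type and less RNA per cell cannot be told apart, and the part of cell composition in the changes of the Notch genes was not tested.

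Mouse 4 stood apart in an endothelial component. The 10 endothelial markers summed to 201 CPM in its ASO mix library, 195 CPM in its control ASO library and 228 CPM in its untransfected library, against 30.1 to 66.2 CPM in the libraries of the other mice. Notch1 was highest in mouse 4 in every group, as given above. Notch4, an endothelial receptor gene outside the 10 that was added after its values were seen, had 15.9, 16.9 and 17.5 CPM in the mix, control ASO and untransfected libraries of mouse 4 and 2.35 to 8.82 CPM in the other libraries. The mouse 4 library of Heyl was highest with the mix, at 4 reads, second of 4 with the control ASO and next to last without transfection. Without mouse 4, the log2 fold changes with the control ASO relative to no transfection were -1.54 for Notch1, -1.46 for Notch2, -1.67 for Jag1, -1.27 for Hey2 and -2.28 for Heyl, all still called.

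**Figure D5:**
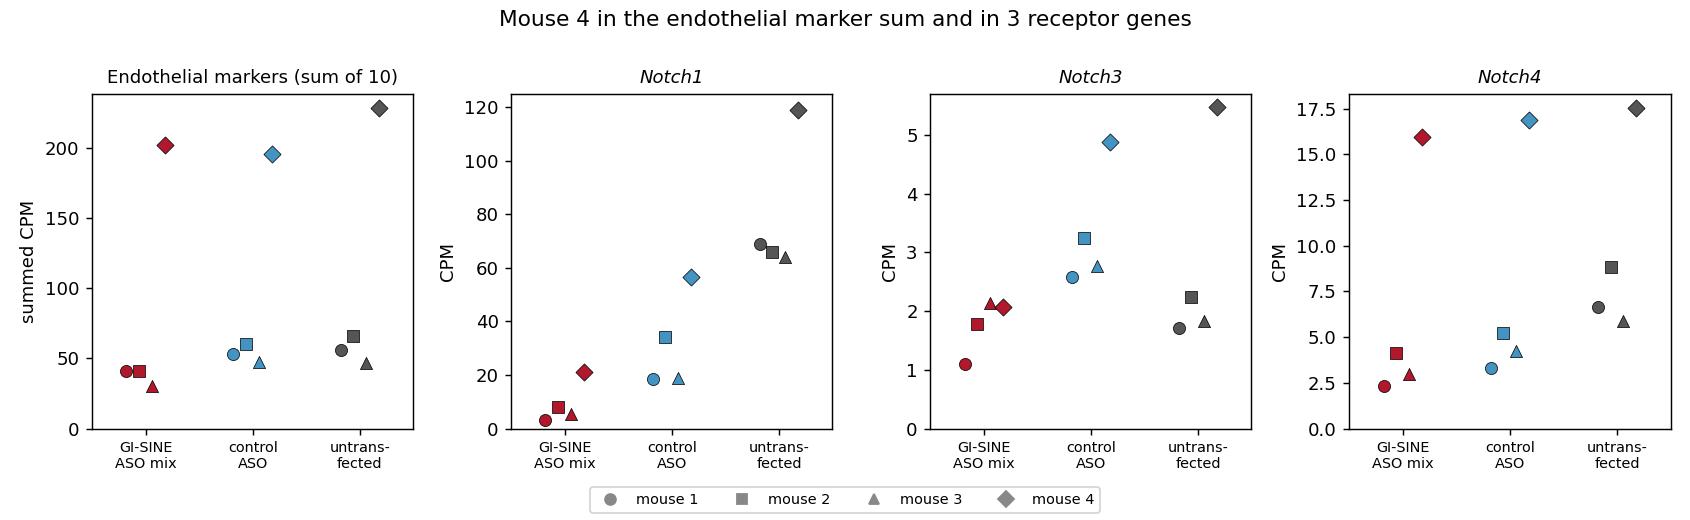
Summed CPM of 10 endothelial markers and CPM of Notch1, Notch3 and Notch4 in each library, by group (ASO mix, control ASO, untransfected), with the mouse given by the marker shape. The endothelial sum is 195 to 228 CPM in the 3 libraries of mouse 4 and at most 66.2 CPM in all others.

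The genes whose levels ran most like Heyl over the 12 libraries were sought among 12011 candidates with a mean log2 CPM of at least 1. Likeness is Pearson's r of log2 CPM, and the points share 3 groups and 4 mice. So r takes in the differences between the groups and those between the mice. For Heyl these were Hs2st1 (r = 0.992), Rcn3 (0.982), Capg (0.978), Rab7b (0.978) and Tmem198b (0.978). Hs2st1, which encodes a sulfotransferase of heparan sulfate, averaged 55.0 ± 4.15 CPM with the ASO mix, 73.1 ± 4.08 CPM with the control ASO and 91.5 ± 2.24 CPM without transfection (SD, n = 4 each), a far smaller span than that of Heyl. For Hes1 they were Tinagl1 (r = 0.95), Pde4b (0.94), Nfkb2 (0.933), Igfbp7 (0.933) and Edn1 (0.928). The lists for Heyl and Hes1 have no gene in common.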

How the data were processed

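Total RNA from 12 DRG cultures was sequenced as stranded TruSeq libraries, per the labels' protocols. The authors deposited 1 table of raw read counts per gene. Per the submitters' processing notes the build was GRCm38 and the tools included HTSeq, STAR and bcl2fastq 2.17. Which annotation release was used, and whether counting used strand, is not given in the sources used here. Of the 48795 IDs, 48435 were given a symbol from GENCODE mouse release 21. Total counts per library limit the precision, and intervals cover counting error only.

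Genes were tested with edgeR 4.0.16 (R 4.3.3): edgeR's default filter by group, TMM scaling, and a robust quasi-likelihood fit with group and mouse over 12 libraries, with Benjamini-Hochberg adjusted p values over 16831 genes and calls under 0.05. The pairing comes from the series design, where libraries of 1 number share a mouse. Deviations from the group means had correlations of 0.138 to 0.557 between same-numbered libraries, the highest correlation being that of the own number in 24 of 24 cases. Cultures of different mice were separate preparations, and no library was a copy of another. Correlations used log2 CPM with a prior count of 2. Read ratios carry exact binomial intervals at 95%, and a count of 0 was taken to allow 3 reads. The script for the fit was tested on simulated counts.

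The 10 genes, the pathway lists, the cell markers and the rule for named genes were chosen with earlier results of these data known. Named were the 10 genes, the 8 other pathway genes with the smallest p in each of the mix against control ASO and control ASO against untransfected comparisons, Rbpj, Hes5, and the 5 genes most like Heyl and most like Hes1. A gene that this rule names is not reported here. Clone and predicted-gene numbers and the 10 genes themselves were left out of the search for likeness. Alternatives were a fit without mouse, DESeq2 1.42.0 size factors or library size alone for scaling, DESeq2's Wald test, limma-voom (limma 3.58.1), no filter, a stricter filter (mean log2 CPM of 1 or more, and 10 counts or more in 4 libraries), only the groups compared, each mouse left out, the mix library of mouse 4 left out, and 3 loci that collect ribosomal RNA reads left out. The level of GI-SINE RNA was not analysed here.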

Additional observations from a re-analysis of the deposited data

Results flagged for a closer look

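In groups of 4 libraries, a library was listed when its gap to the nearest other, divided by the group's range, passed Dixon's critical value, which chance alone does in about 1 of 20 groups. Of 30 groups (10 genes in 3 conditions), 4 met this, and all 4 concern mouse 4. In untransfected cultures, Notch1 was 119 CPM in mouse 4, with 69.0 CPM in the next library and 63.9 CPM in the lowest. Notch3 in untransfected cultures was 5.47 CPM in mouse 4, with 2.24 CPM next and 1.71 CPM lowest. Jag2 with the ASO mix was 39.3 CPM in mouse 4, with 25.7 CPM next and 23.9 CPM lowest. Hey1 with the control ASO was lowest in mouse 4, at 55.2 CPM, with 60.4 CPM next and 61.3 CPM highest. The endothelial marker sum was also highest in the libraries of mouse 4 (201, 195 and 228 CPM with the mix, the control ASO and no transfection), and its part in these values was not tested.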

How the results depend on the processing

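Each result was recomputed under 14 alternative settings. No result reversed its direction past the threshold. Of the values of single genes under an alternative, 694 kept their direction and their side of the threshold or, without a test, moved by less than the spread between mice, while 24 lost a call and 6 gained one. Of the counts of calls, 121 stayed within 1.5 times and 5 did not. Without the mouse as a replicate block, 5 of the 10 genes were called with the mix relative to the control ASO instead of 8. Of all genes, 7968 were called there instead of 9454. Without the block, 2391 genes were called with the control ASO relative to no transfection instead of 4081, and 15 of the other pathway genes instead of 25. DESeq2's Wald test called 5 of the 10 genes with the mix relative to no transfection instead of 8. Of all genes it called 9417 there instead of 10307. The cause was not tested. With 1 mouse left out, 2540 (without mouse 3) to 3946 genes were called with the control ASO relative to no transfection. Among the 10 genes, leaving out a mouse gave 5 to 7 calls there, 6 to 7 for the mix relative to the control ASO, and 6 to 8 when the mix was set against no transfection. Of all genes, 7390 to 10217 were called for the mix relative to the control ASO, and 8857 to 10770 for the mix relative to no transfection. Heyl was included for its low level with the mix, so nothing is read from the member counts that use the mix. Leaving out only the mix library of mouse 4 gave 5317 calls with the control ASO relative to no transfection. Scaling by library size alone shifted the median log2 fold change of all genes by -0.12 with the mix relative to the control ASO. It changed the share of higher genes among those called to 34% there, against 48.7% with TMM, and to 55.4% against 43.5% with the control ASO relative to no transfection. Without mouse 3 that last share was 29.6%. The stricter filter left no value for Dll1. Depth limits Heyl with the mix (7 reads in 4 libraries), Dll1 (64, 49 and 34 reads in the 3 groups) and Hes5.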
